A study of Mus musculus with 16 samples.

Results

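The question here was whether an odorant, octanol, altered which genes were more abundant in activated than in other cells of the mouse olfactory mucosa. The quantity is a ratio: for each pool of mice, the log2 signal of a gene in the sorted GFP+ cells minus its log2 signal in the sorted GFP- cells. All 16 arrays of the series enter it, as 4 pools exposed to octanol and 4 pools exposed to vehicle, each pool with 1 GFP+ and 1 GFP- array. The labels number the GFP+ and GFP- samples of an exposure alike, and arrays of 1 number were taken as fractions of 1 pool, which the labels do not state outright. The deviations of such fractions from their group means correlated at 0.0779 to 0.222, above 0.1 in 6 of 8 pools. Fractions of unlike number were not set beside them, so these values cannot show that the matching is right. Every ratio below rests on this matching. The members are all 19505 genes with a gene symbol, and 1091 of them are odorant receptor genes, of which 1025 lay above background in at least 1 group of arrays. The change is the mean ratio of the 4 octanol pools minus the mean ratio of the 4 vehicle pools, so a positive change means that GFP+ exceeded GFP- by more after octanol.

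Each olfactory sensory neuron uses 1 odorant receptor gene, and an odorant that opens the transduction pathway raises the transcription of S100a5, a calcium-binding protein gene of these neurons. In mice that carry a tauGFP reporter under the S100a5 gene, neurons that have been active become fluorescent and can be sorted. A receptor that responds to an odorant is then read from its mRNA moving into the GFP+ cells when that odorant is given, against the same measure in mice given clean air.

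The mice were S100a5-tauGFP animals of both sexes, aged 7 to 12 weeks. In the vehicle and octanol groups alike each mouse spent 40 h alone in a chamber under a clean air stream of 3.1 L/min. From 26 h on they received pulses of 10 s every 20 min, of filtered air in the vehicle group and of octanol in the octanol group. The labels give 24 mice in pools of 3 and do not name the isomer or concentration of octanol, the sex make-up of a pool or whether a reporter copy replaces S100a5. Olfactory mucosa was dissociated and sorted, and 50 to 100 ng of RNA went onto each Clariom S expression array. A pool averages its mice, so the tests below measure the spread between pools. In sorted bulk samples, fewer cells of a type and less RNA per cell cannot be told apart.

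The sorted cells had the markers of the labelled tissue. Omp, the olfactory marker protein gene of mature sensory neurons, lay between 17.98 and 18.24 log2 units on the 16 arrays. S100a5 itself lay between 16.75 and 17.02 in the 4 vehicle GFP+ arrays and between 15.79 and 16.31 in the vehicle GFP- arrays, and between 16.77 and 16.86 and between 15.78 and 16.09 in the octanol GFP+ and GFP- arrays. The sort therefore separated S100a5 in all 8 pools, and GFP+ was above GFP- in each. The median over genes was 7.85 to 7.91 in GFP+ arrays and 8.12 to 8.25 in GFP- arrays, so every GFP- array lay above every GFP+ array under both exposures. Between 63.8% and 67.2% of genes exceeded a background level of 6.32, which is the 95th percentile of the mean signals of 321 vomeronasal receptor genes, a family used by another organ. Array intensities have no read depth, and the 4 pools a group limit the precision.

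No gene passed an adjusted p of 0.05. With limma and Benjamini-Hochberg adjustment over 19505 genes, 0 genes were called in either direction (0.0% of genes), and the smallest adjusted p was 0.863, for the receptor gene Olfr95. At an unadjusted p under 0.05 there were 886 genes (4.54% of all tested), of which 505 had a higher ratio after octanol (2.59%) and 381 a lower one (1.95%). Non-overlap of the 4 octanol and 4 vehicle pools was seen for 504 genes (2.58%), 302 with higher ratios (1.55%) and 202 with lower ones (1.04%). Among the 13611 genes above background, 492 reached an unadjusted p under 0.05 (3.61%). The genes named below are thus described by their values, and none is shown to have changed.

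**Figure D1:**
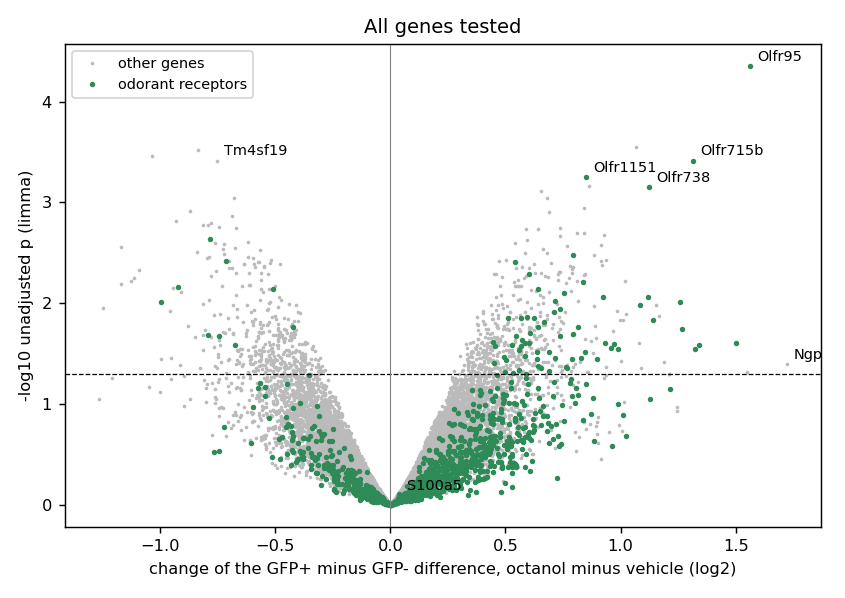
Change of the GFP+ to GFP- ratio after octanol (log2, horizontal) against -log10 of the unadjusted limma p (vertical) for all 19505 genes, with odorant receptors in green and the dashed line at an unadjusted p of 0.05. Olfr95 sits at 1.56 and apart from the other genes, S100a5 sits at 0.04 near the bottom, and receptors lie more often to the right of 0 than to the left, in the values as deposited.

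Odorant receptors had positive changes more often than other genes in the values as deposited. Of 1091 receptor genes, 790 (72.4%) had a positive change, against 55.5% of all genes and 54.4% of the other genes. At an unadjusted p under 0.05, 65 receptors had a higher ratio after octanol, 5.96% of receptors beside 2.59% of all genes, and 9 had a lower one, 0.825% beside 1.95%. By non-overlap of pools 19 receptors were higher (1.74%) and 5 lower (0.458%), 2.2% of receptors in all, which is near the background of 2.58%. The median change was 0.17 over receptors and 0.03 over all genes, and the receptors' changes ran from -0.34 to 0.72 between their 5th and 95th percentiles.

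The size of these receptor values varied with the pools included and with the scale of the arrays. The median receptor ratio was 0.79, 0.49, 0.50 and 0.51 in octanol pools 1 to 4, and 0.37, 0.42, 0.43 and 0.48 in the vehicle pools. Octanol pool 1 stood above the rest, and the lowest octanol value and the highest vehicle value, 0.485 and 0.484, nearly met. The same medians over all genes were 0.16, 0.09, 0.09 and 0.13 after octanol, and 0.10, 0.08, 0.10 and 0.12 after vehicle. Without octanol pool 1 the receptor median change was 0.09, with 670 positive and 44 higher and 14 lower receptors at an unadjusted p under 0.05. The receptor median stayed positive after quantile normalization, at 0.13 with 743 positive. With arrays centred on all genes it was 0.11, with 713 positive and 50 higher and 13 lower. The all-gene median was 0.002 after quantile normalization and -0.04 with arrays centred on all genes. Of 19505 genes, 9830 and 8308 were positive in that order. Centring every array on its receptor median sets the receptor change near 0 by construction. The receptor median was then -0.03, with 491 positive, 22 receptors higher and 34 lower. The median over all genes was -0.17 where it had been 0.03, with 3871 genes positive. The receptor median thus lay above the all-gene median in each of these scalings. Scaling also moves the balance of all genes: higher ratios made up 57.0% of the genes at an unadjusted p under 0.05 as deposited, 48.5% after quantile normalization, 31.1% with arrays centred on all genes and 5.67% with arrays centred on receptors. Among receptors higher ratios made up 87.8%, 82.9%, 79.4% and 39.3% in that order.

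As deposited, the receptors' median difference was larger in the GFP- arrays than in the GFP+ arrays. Octanol minus vehicle, the median receptor level differed by 0.01 in GFP+ arrays and by -0.16 in GFP- arrays. In the GFP+ arrays 575 of 1091 receptors were higher after octanol, and 26 higher (2.38%, beside 2.26% of all genes) and 16 lower (1.47%, beside 1.47%) had an unadjusted p under 0.05. In the GFP- arrays 256 were higher, and 9 higher (0.825%, beside 2.02% of all genes) and 110 lower (10.1%, beside 2.56%) had an unadjusted p under 0.05. limma called 0 genes in either fraction after adjustment, where 727 genes in GFP+ and 894 in GFP- had an unadjusted p under 0.05. After quantile normalization the medians were 0.01 in GFP+ and -0.13 in GFP-, with 23 higher and 19 lower in GFP+ and 12 higher and 89 lower in GFP-. With arrays centred on all genes they were -0.01 and -0.12, with 22 and 20 in GFP+ and 14 and 78 in GFP-. The all-gene counts were then 351 and 359 in GFP+ and 636 and 296 in GFP-. With arrays centred on receptors, which fixes both medians near 0, they were -0.03 and -0.0049, and the order turned. The receptor counts were 17 and 25 in GFP+ and 30 and 38 in GFP-. Those of all genes were 164 and 275 in GFP+ and 1201 and 70 in GFP-. Of the 65 receptors with a higher ratio, 59 were above vehicle in GFP+ and below it in GFP-, and 23 had the larger part of the change in GFP+. Over all 1091 receptors these counts were 406 and 458. The 65 were picked by the GFP+ change minus the GFP- change, so opposite signs in the fractions follow in part from that choice.

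**Figure D2:**
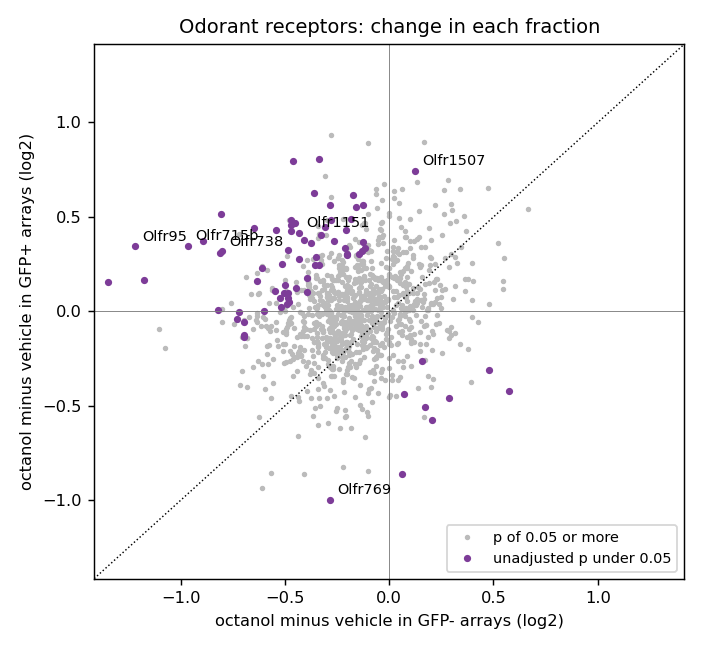
Octanol minus vehicle in GFP- arrays (horizontal, log2) and in GFP+ arrays (vertical, log2) for the 1091 odorant receptor genes, with purple for an unadjusted p under 0.05 of the ratio and a dotted line where both changes are equal, so that the ratio does not differ. Most purple points lie left of and above that line: Olfr95 is at -1.22 and 0.34, and Olfr769, below the line, is at -0.28 and -0.997.

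Class I receptors, the ancient family first described in fish, numbered 121 and had a median change of 0.10, with 76 positive, 0 higher and 1 lower at an unadjusted p under 0.05 (0.0% and 0.826%, beside 2.59% and 1.95% of all genes). Their pool medians were 1.06, 0.95, 0.54 and 0.30 after octanol and 0.35, 1.54, 0.33 and 0.45 after vehicle. The pools of both exposures overlapped, and vehicle pool 2 had the highest class I ratio of all 8. Without that pool the class I median change was 0.38, with 101 positive and 19 higher, beside 563 higher of 19505 genes. Without octanol pool 1, vehicle pool 1 or vehicle pool 3 it was -0.02, -0.04 and -0.02. The sign and count for class I thus depended on single pools. Class II receptors, the larger terrestrial family, numbered 950 and had a median change of 0.18, with 699 positive, 64 higher (6.74%, beside 2.59% of all genes) and 8 lower (0.842%, beside 1.95%). Their pool medians were 0.73, 0.37, 0.50 and 0.56 after octanol, and 0.38, 0.27, 0.47 and 0.50 after vehicle. The class II median change ran from 0.11 without octanol pool 1 to 0.24 without octanol pool 2.

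Receptors are grouped by sequence into subfamilies (MOR families), and 29 of these had 10 or more genes. Among the 29, the median change was highest in MOR261, at 0.49, then 0.39 in MOR225 and 0.33 in MOR135. In MOR261 9 of 11 genes were positive, beside 72.4% of all odorant receptors. Genes with a higher ratio at a limma unadjusted p under 0.05 numbered 1 of 11 in MOR261, 0 of 11 in MOR225 and 1 of 18 in MOR135. The shares were 5.96% of odorant receptors and 2.59% of all genes. The lowest medians were -0.08 in MOR262, with 3 of 10 positive, -0.03 in MOR233 and -0.02 in MOR263. The trace amine-associated receptors, which detect volatile amines, had a median change of 0.23 and 0 genes at a limma unadjusted p under 0.05. Of 15, 13 were positive, 86.7% beside 72.4% of odorant receptors and 55.5% of all genes. That median depended on single pools. It was -0.04 without vehicle pool 3, 0.01 without octanol pool 2, 0.06 without vehicle pool 1 and 0.13 without octanol pool 1. It was 0.34 without octanol pool 3 and 0.44 without vehicle pool 2. Without vehicle pool 2, 15 of 15 were positive and 3 were higher at a limma unadjusted p under 0.05, beside 563 of 19505 genes. The 321 vomeronasal receptors had a median of 0.05, with 17 higher (5.3%) and 11 lower (3.43%), beside 2.59% and 1.95% of all genes. Of these only 27 lay above background. With only genes above background tested, 2 of the 27 were higher and 2 lower, beside 346 and 207 of all 13611.

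Olfr95, a class II receptor of subfamily MOR263 on chromosome 17, had the smallest p of all genes. Its ratio was 2.14, 2.13, 1.49 and 1.44 in octanol pools 1 to 4, and 0.39, 0.33, -0.20 and 0.43 in the vehicle pools. All 4 octanol pools lay above all vehicle pools, by at least 1 log2 unit. The mean was 1.80 ± 0.39 (SD, n = 4) after octanol and 0.24 ± 0.29 (SD, n = 4) after vehicle. The change was 1.56 (SE 0.22, 95% interval 1.06 to 2.06), a 2.95-fold higher ratio, with a limma unadjusted p of 4.42e-05 and an adjusted p of 0.863. Over the 18 other ways of processing the change ran from 1.37 to 1.68, and the adjusted p from 0.673 to 1.0. Olfr95 had the smallest p of all genes in 12 of those 18.

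The levels of Olfr95 differed mainly in the GFP- cells. In vehicle GFP- arrays it was 10.98, 12.04, 11.74 and 11.38, and in octanol GFP- arrays 10.04, 10.39, 9.94 and 10.89. These groups did not overlap, and octanol was lower by 1.22 (change -1.22, limma unadjusted p of 6.67e-04). In vehicle GFP+ arrays it was 11.37, 12.37, 11.54 and 11.81, and in octanol GFP+ arrays 12.18, 12.52, 11.43 and 12.33. These GFP+ values overlapped, with a change of 0.34. The receptor genes next to it did not share its value: by gene order in RefSeq, Olfr94 on one side had a change of -0.06 and Olfr96 on the other 0.01. Olfr91, which lies farther along the same cluster and belongs to MOR256, had a change of 0.54 (SE 0.14, unadjusted p 0.00393), with ratios of 1.57 to 1.67 after octanol and 0.79 to 1.26 after vehicle. Olfr92, between Olfr91 and Olfr93, was at -0.39.

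**Figure D3:**
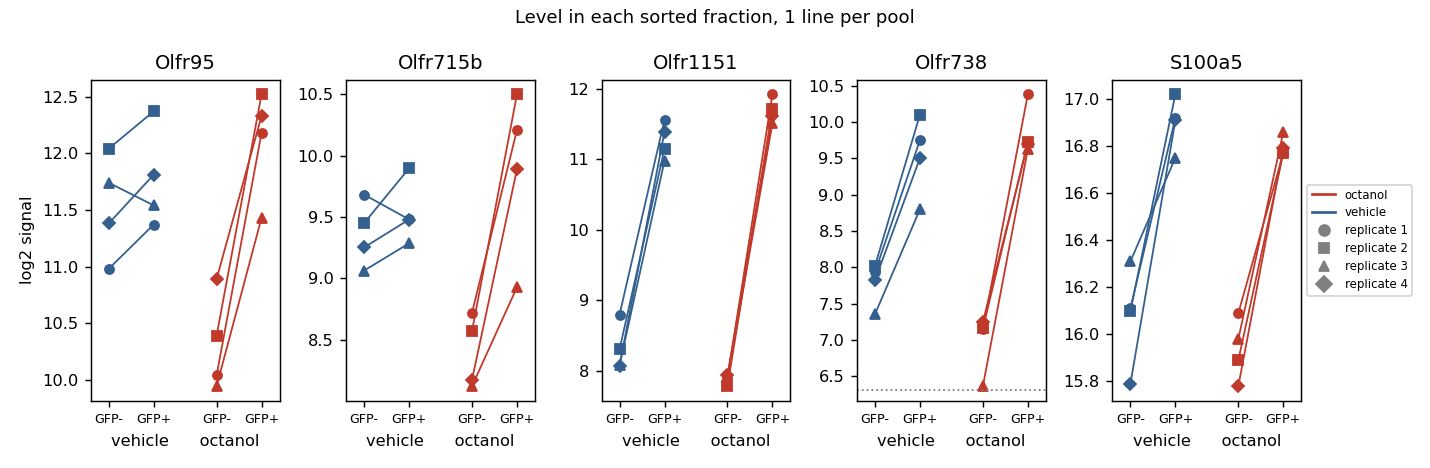
Log2 signal of 4 odorant receptors and S100a5 in each sorted fraction, 1 line per pool from its GFP- to its GFP+ array, blue for vehicle and red for octanol, with the vertical axis set for each gene and a dotted line at background where it falls in range. The red lines of Olfr95 start lower than the blue ones and end at similar levels, and the S100a5 lines of both exposures run nearly parallel.

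Olfr715b, a receptor on chromosome 7 with no class given, had the next smallest p among the receptors with non-overlapping pools. Its ratio was 1.49, 1.93, 0.81 and 1.72 after octanol and -0.20, 0.45, 0.22 and 0.23 after vehicle, with all octanol pools above all vehicle pools. The change was 1.31 (SE 0.25, 95% interval 0.76 to 1.87, unadjusted p 3.85e-04), a 2.48-fold higher ratio. Its GFP- levels were 9.68, 9.45, 9.06 and 9.25 after vehicle and 8.72, 8.57, 8.12 and 8.17 after octanol, and here also the groups did not overlap. The GFP+ levels, 9.48, 9.90, 9.28 and 9.48 against 10.21, 10.50, 8.93 and 9.89, did.

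Olfr1151, of MOR177 on chromosome 2, was already a GFP+ gene after vehicle, with ratios of 2.76, 2.84, 2.90 and 3.31. After octanol the ratios were 4.01, 3.92, 3.61 and 3.67, which gives a change of 0.85 (SE 0.17, unadjusted p 5.64e-04) and a 1.80-fold higher ratio. Both fractions took part: GFP+ was higher by 0.42 and GFP- lower by 0.43 (change -0.43). Its GFP+ levels were 11.56, 11.15, 10.98 and 11.39 after vehicle and 11.92, 11.71, 11.51 and 11.61 after octanol, where the lowest octanol pool lay below the highest vehicle pool. Olfr738, of MOR106 on chromosome 14, had ratios of 3.24, 2.57, 3.26 and 2.45 after octanol and 1.82, 2.08, 1.44 and 1.68 after vehicle. Its change was 1.12 (SE 0.23, unadjusted p 7.04e-04), and its GFP- change was -0.80, from levels of 7.35 to 8.02 after vehicle to 6.36 to 7.25 after octanol, near background.

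Of the 19 receptors with non-overlapping pools and higher ratios, the 10 of smallest p are named. Among them Olfr1115 differed by 0.79, Olfr152 by 0.60, Olfr1044 by 0.84 and Olfr447 by 1.12, with unadjusted p between 0.00334 and 0.00873. Olfr447, a member of MOR261, had a vehicle ratio of -0.03 in pool 1 and 1.01 to 1.66 in the others. Olfr993 differed by 0.92, but it was above background in 0 GFP- arrays, and with values below background set to background the change was 0.02.

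Of the 5 receptors with non-overlapping pools and lower ratios after octanol, 3 had a mean above background in at least 1 group. Olfr769, of MOR114 on chromosome 10, was a GFP- gene, with ratios of -2.37, -2.16, -1.72 and -1.99 after vehicle and -2.66, -3.01, -2.46 and -2.96 after octanol. Its change was -0.71 (SE 0.19, unadjusted p 0.00381) and came from the GFP+ arrays, 8.23, 8.49, 8.83 and 8.40 after vehicle and 7.25, 7.62, 7.66 and 7.43 after octanol. The GFP+ groups did not overlap, with a change of -0.997. Olfr1128 had a change of -0.78 and Olfr1282 one of -0.42. Olfr1128 was above background in 0 of 8 GFP- arrays, and with values below background set to background its change was -0.38.

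**Figure D4:**
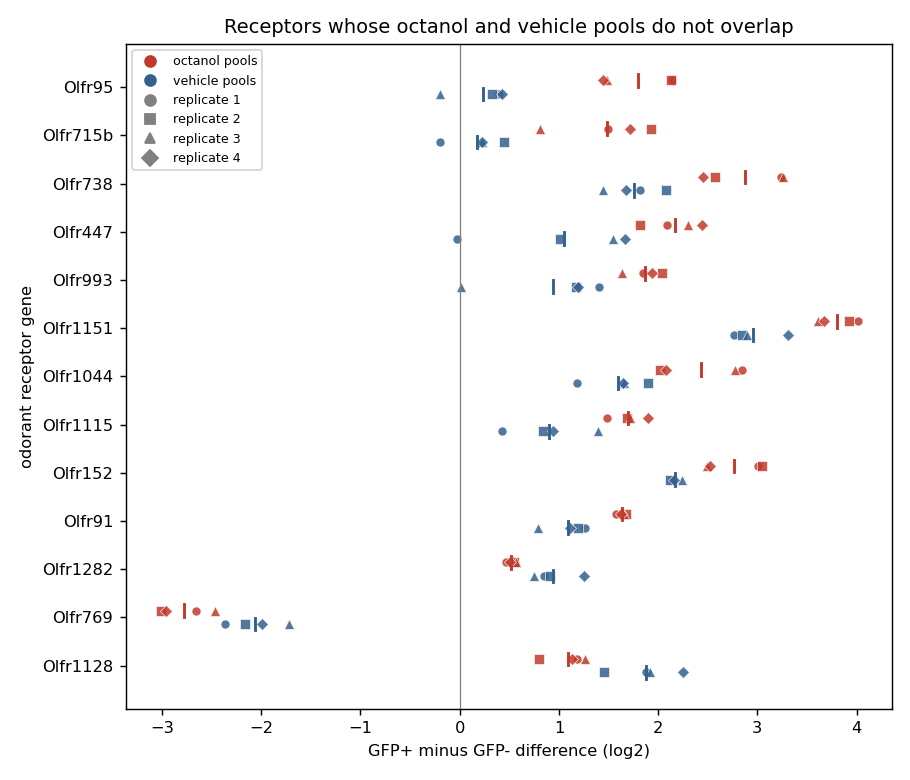
GFP+ minus GFP- difference (log2) of the named odorant receptors whose octanol (red) and vehicle (blue) pools do not overlap, 1 marker per pool by replicate number and a bar at the mean. The 10 genes with a positive change include Olfr95 at 1.56, and the 3 with a negative one are Olfr1128, Olfr769 and Olfr1282.

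The range of change that the pools allow for a single gene differs by gene group. The median 95% interval of a receptor's change was ± 0.74 log2 units, beside ± 0.44 over all genes. For 612 of the 1091 receptors (56.1%) the upper bound of the interval lay below 1 log2 unit, and for 478 a 2-fold higher ratio lay within the interval. The upper bound was below 2 log2 units for 1056. For 1 receptor, Olfr95, the whole interval lay above 1, and its limma adjusted p was still 0.863. The intervals are those of single genes and are not adjusted over the 19505 genes. They therefore do not give the size of change that would have been called. A change above 1 was measured for 33 of 19505 genes, of which 15 were among the 1091 receptors, and one below -1 for 11 genes and 0 receptors. Receptors also had a larger median SE, 0.33 beside 0.20 over all genes. Their median change of 0.17 moved with the scale of the arrays, so these counts do not single out changed receptors. Among all genes, 32 had a negative ratio in every vehicle pool and a positive one in every octanol pool, and 21 the reverse. Of these, receptors made up 0 and 2, and neither receptor was above background.

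Receptors with ligands known from earlier work had their own list. Of 17 listed, 15 were measured and 12 had a positive change, 80.0% beside 72.4% of all odorant receptors and 55.5% of all genes. The median was 0.27, beside 0.17 over all odorant receptors. With a higher ratio, 1 reached a limma unadjusted p under 0.05 (6.67%, beside 5.96% of odorant receptors and 2.59% of all genes). The median ran from 0.15 without vehicle pool 2 to 0.39 without octanol pool 3. That 1 was Olfr1507, also called MOR28, a receptor of ventral neurons and a strongly GFP- gene, with ratios of -6.16, -6.08, -5.82 and -5.21 after octanol and -6.57, -6.41, -6.44 and -6.34 after vehicle. Its change was 0.62 (SE 0.21, unadjusted p 0.0141), with GFP+ levels of 7.71 to 9.10 after octanol and 7.30 to 7.84 after vehicle. Olfr691 differed by 0.59 and Olfr544 by 0.59, both class I, Olfr160 (M72) by 0.51 and Olfr16 (MOR23) by 0.53, with unadjusted p between 0.0504 and 0.236. Olfr16 was at 0.17 without vehicle pool 3. Olfr544 had 0.89 in vehicle pool 2, where the other vehicle pools were at -0.14 to -0.10, and 0.17, 0.50, 1.34 and 0.89 after octanol.

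The ratio of the reporter's own gene did not separate the exposures. The fractions were sorted by that reporter, so this ratio cannot show whether octanol raised S100a5. S100a5 had ratios of 0.68, 0.88, 0.88 and 1.00 after octanol and 0.81, 0.92, 0.43 and 1.12 after vehicle, which overlap. Its change was 0.04 (SE 0.17, 95% interval -0.34 to 0.42, unadjusted p 0.813), and it was -0.02 with arrays centred on all genes and -0.16 with arrays centred on receptors. Omp had ratios of 0.26, -0.01, 0.10 and 0.12 after octanol and 0.02, 0.05, 0.10 and 0.09 after vehicle, with a change of 0.05. That of Omp also turned, to -0.01 and -0.15, with the same centrings.

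Other genes known to respond to neuronal activity gave no unadjusted p under 0.05 in the main fit with all 8 pools. Of 9 measured genes raised by activity, 7 had a positive change and the median was 0.08, with Pcp4l1, a calmodulin-binding peptide gene, at 0.36. Of 5 lowered by activity, 3 were positive and the median was 0.00, with Sema7a, an axon guidance gene, at 0.15. Of 20 immediate early genes, the first transcripts that follow stimulation, 13 were negative and the median was -0.10. Without vehicle pool 2 that median was 0.02, with 11 positive and 3 higher at a limma unadjusted p under 0.05, beside 563 of 19505 genes. Some other settings gave lower ratios at that p. With arrays centred on all genes 2 were lower, beside 653 of all genes, and centred on receptors 3, beside 1331. After quantile normalization 1 was lower, beside 452. Among these genes Arc was at -0.40 and Atf3 at -0.44. Arc was above background in 7 of 16 arrays, and with values below background set to background its change was -0.08. In the transduction pathway from G protein to channel, 11 genes had a median of 0.05, and Cnga4, a subunit of the cyclic nucleotide-gated channel, was at 0.15. In the 9 genes that end the response the median was 0.06, with Grk3, a receptor kinase, at 0.26, or -0.0095 with values below background set to background. That list's median was -0.08 without octanol pool 4. The 20 mature neuron genes had a median of 0.02, with 13 positive, and one of -0.01 without octanol pool 1. Among the 6 genes for receptor transport to the membrane the median was 0.00, with 3 positive, and Rtp4 was at -0.46. In that list 1 gene, Rtp3, had a higher ratio at a limma unadjusted p of 0.0433 (16.7%, beside 2.59% of all genes at a p under 0.05). With only genes above background tested, 5 of the list remained and 0 had a higher ratio at an unadjusted p under 0.05.

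Genes of immature neurons and dividing progenitors had lower levels in GFP+ than in GFP- cells. Of 15 immature neuron genes 14 had a positive change, 93.3% beside 55.5% of all genes, with a median of 0.21, and 3 had an unadjusted p under 0.05, 20.0% beside 2.59%. With arrays centred on receptors, which lowers all genes, 8 were positive with a median of 0.02. Without octanol pool 1 the median was 0.06, and without vehicle pool 4 it was 0.11. Gng8, a G protein subunit of immature neurons, had ratios of -4.19, -4.02, -4.21 and -4.30 after octanol and -4.79, -4.97, -5.75 and -4.60 after vehicle, which do not overlap. Its change was 0.85 (SE 0.24, unadjusted p 0.00512). Dpysl3, a growth cone protein gene, differed by 0.62, and Ablim1, an actin-binding protein gene, by 1.09, with 0 of 8 GFP+ arrays above background for Ablim1. Of 10 progenitor and cell cycle genes 9 were positive with a median of 0.19, and Mcm2, a replication helicase gene, differed by 0.53. That list's median was -0.01, with 5 positive, when arrays were centred on receptors, and 0.36 without vehicle pool 2.

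Markers of blood cells, which had far lower levels in GFP+ than in GFP- cells, differed between pools of 1 exposure. Of 11 neutrophil genes 9 had a positive change, the median was 0.85, and 2 had an unadjusted p under 0.05 (18.2%, beside 2.59% of all genes). Ngp, a neutrophil granule protein gene, had ratios of -7.94, -7.50, -5.79 and -4.66 in octanol pools 1 to 4 and -6.89, -8.95, -9.06 and -7.87 in the vehicle pools. Octanol pools 3 and 4 lay above the rest, and the groups overlapped, with a change of 1.72 (SE 0.73, unadjusted p 0.0404). Retnlg and S100a9, also neutrophil genes, differed by 1.55 and 1.21. The summed neutrophil level was 11.77 to 14.70 in octanol GFP+ arrays and 10.83 to 12.09 in vehicle GFP+ arrays, against 19.31 to 19.95 and 19.06 to 19.72 in the GFP- arrays. The list median was 0.48 without octanol pool 3 and 0.37 without octanol pool 4, with 0 genes at an unadjusted p under 0.05 in each. It was 1.36 without octanol pool 1. The part of these cells in the receptor values was not tested. For the 10 myeloid genes the median was 0.04, with Ly6c2 at 1.19 and Adgre1 at 0.44, and it ran from -0.22 without octanol pool 3 to 0.41 without octanol pool 1. For the 8 lymphoid genes it was 0.40, with 7 positive, and 0.17 without vehicle pool 1. Cd3e, a T cell receptor subunit gene, was at 0.41, and at 0.16 without vehicle pool 1, with 0 of 8 GFP+ arrays above background.

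**Figure D5:**
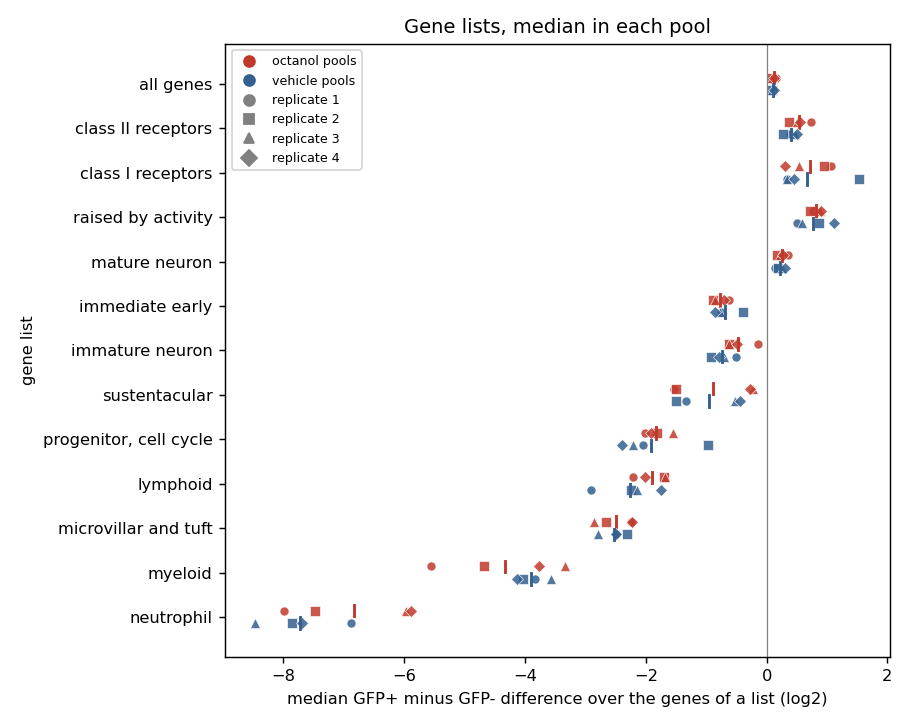
Median GFP+ minus GFP- difference (log2) over the genes of each list in each pool, red for octanol and blue for vehicle, with the marker shape giving the replicate number and a bar at the mean of 4 pools. The pools of both exposures overlap in every list drawn; sustentacular genes lie between -1.54 and -1.33 in pools 1 and 2 and between -0.53 and -0.22 in pools 3 and 4 under both exposures, and neutrophil genes are highest in octanol pools 3 and 4.

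The 9 sustentacular genes, of the glia-like cells around the neurons, had pool medians of -1.54, -1.50, -0.22 and -0.27 after octanol and -1.33, -1.49, -0.53 and -0.45 after vehicle. Pools 1 and 2 thus lay together under both exposures and apart from pools 3 and 4. The median change was 0.09, and it depended on the pools included: 0.31 without octanol pool 1 or 2, with 9 of 9 positive, and -0.10 without octanol pool 4 or vehicle pool 2. For 9 Bowman gland genes it was -0.04, but 0.33 with 8 positive without octanol pool 1, and -0.23 without octanol pool 3. Among them Sox9, a gland transcription factor gene, was at 0.54. The median was -0.06 for 10 microvillar and tuft cell genes, from -0.16 without vehicle pool 3 to 0.15 without octanol pool 2, and Avil, an actin-bundling protein gene, was at -0.40. It was 0.09 for 6 horizontal basal cell genes, of which 1 was above background and was Icam1 at 0.00. The 6 ciliated cell genes had a median of -0.01, 6 ensheathing glia genes -0.12, 6 endothelial genes -0.04 with Tie1 at 0.48, and 6 fibroblast genes -0.06 with Col1a1 at -0.67. With 1 pool left out these medians ran from -0.07 to 0.05, from -0.27 to -0.04, from -0.16 to 0.12 and from -0.28 to 0.19. Col1a1 was -1.85 in octanol pool 1 and -0.09 to 0.23 in the other octanol pools, and its change was -0.20 without that pool.

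The 11 necklace and Trpc2 neuron genes, of chemosensory neurons outside the main receptor system, had a median of 0.04, with Ms4a4b at 0.91 and Gucy1b2 at 0.44, and Ms4a4b was above background in 0 of 8 GFP+ arrays and at 0.49 with values below background set to background. Gucy1b2 was at 0.26 without octanol pool 4. The median was -0.09 for 11 genes of stress and dissociation, with Trib3 at -0.34, and 0.05 for 9 interferon-response genes, with Mx1 at 0.39. Mx1 was above background in 1 of 8 GFP+ arrays, and was at 0.13 with values below background set to background and 0.12 without octanol pool 3. The 4 dorsal zone and 4 ventral zone genes had medians of 0.09 and 0.11, with Sema3f at 0.26 among the latter. The necklace, interferon and dorsal medians ran from -0.08 to 0.19, 0.02 to 0.18 and -0.02 to 0.24 with 1 pool left out. The 13 alcohol and aldehyde enzyme genes, whose products can act on odorants of this kind, had a median of 0.08, with 10 positive and Aldh7a1 at -0.32, and that median ran from -0.02 to 0.19 with 1 pool left out. The 2 erythroid genes measured had a median of 0.13, with Alas2 at 0.16, and the 3 Y-linked genes one of 0.05, with Kdm5d at -0.20, and both medians turned negative without vehicle pool 1.

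Outside the receptors, Runx1t1, a transcriptional corepressor gene, had ratios of 0.15, -0.09, 0.05 and 0.14 after octanol and -0.68, -0.52, -0.44 and -0.72 after vehicle. Non-overlap of pools was a condition for naming the genes of this paragraph. The Runx1t1 groups lay more than 0.3 apart, and the change was 0.65 (SE 0.14, limma unadjusted p 7.61e-04). Its levels were lower in octanol GFP- arrays, 7.51, 7.36, 6.86 and 7.26, than in vehicle GFP- arrays, 7.86, 7.82, 7.58 and 7.76. Tgfb2, a growth factor gene, differed by 0.74, Dlx3, a homeobox gene, by 0.59, Lmbrd2 by 0.59, Prr15l by 0.54 and Fxyd1, a regulator of the sodium pump, by 0.77. Dlx3 and Fxyd1 were near background, and with values below background set to background they were at 0.27 and 0.16. The unnamed transcript 4930412O13Rik, at 0.86, was above background in 3 of 16 arrays and was at 0.15 after that step.

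Among genes above background with non-overlapping pools and lower ratios after octanol, Tm4sf19, a membrane protein gene, had the smallest p. Its ratio was -0.37, -0.03, 0.09 and -0.09 after octanol and 0.64, 0.72, 0.68 and 0.57 after vehicle. That every octanol pool lay below every vehicle pool was a condition for naming the genes of this paragraph. The change was -0.76 (SE 0.14, unadjusted p 3.87e-04), and it was -0.59 with values below background set to background. Cldn10, a tight junction gene, was at -0.68, Ldlrad1 at -0.82, Gfra2, a receptor of a neuronal growth factor, at -0.76, and Ccl26, a chemokine gene, at -0.67. Cldn10 and Gfra2 were above background in 0 of 8 GFP+ arrays, and were at -0.58 and -0.44 after the background step. Ccl26 was at -0.10 after the background step, with 0 of 4 vehicle GFP- arrays above background. Cabyr and Catsperz, genes of the sperm tail, were at -1.17 and -0.79, Spin2c at -0.84, and Rbm15 and Brip1, an RNA-binding protein and a DNA repair helicase gene, both at -0.57. Catsperz was above background in 4 of 16 arrays, all of them vehicle GFP+, and was at -0.31 after the background step.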

How the data were processed

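Gene expression was measured on 16 arrays, GFP+ and GFP- cells of 8 pools. The deposited values, 2.22 to 18.70, were read as log2 signals from their range. Affymetrix Expression Console made them, per the submitters' processing notes, and its summary and normalization method is not given in the sources used. Of 28846 probe sets, 6640 were controls and 19572 had 1 gene symbol; the brightest per gene gave 19505 genes, all matched to RefSeq (GRCm38.p6) for names and gene order only. The 2701 other probe sets held 0 calls. The GFP+ minus GFP- difference per pool was tested, octanol against vehicle, with limma 3.58.1 in R 4.3.3 and Benjamini-Hochberg adjustment. GFP+ and GFP- arrays were matched into pools by exposure and replicate number, which the labels do not state outright. Replicate numbers were not taken to pair octanol with vehicle pools, as the labels do not give such a pairing. The ratios' deviations of equal numbers correlated at 0.0236, 0.25, 0.066 and 0.169, and all 8 pools correlated best with their own number. A fit with that block was run as an alternative. Background was the 95th percentile of mean signals of 321 vomeronasal receptors.

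Named were the 12 genes with higher and 12 with lower ratios of smallest p, and likewise up to 10 receptors each, with non-overlapping pools and a mean above background in a group. Added were S100a5, Omp, and from each list the member of largest t with up to 2 more where the unadjusted p was below 0.1 (5 receptors with known ligands), 70 genes in all. The members, lists and tests were chosen with earlier results of these data known. The scaling of arrays, the pool and replicate blocks, the variance model, array weights, filters on low values, the probe set rule and each pool left out were varied in 18 alternatives. The code was tested on simulated data.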

Additional observations from a re-analysis of the deposited data

Results flagged for a closer look

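In groups of 4 pools, a value far from the other 3 was looked for in 140 groups of 70 named genes and was found in 6, where chance gives about 1 in 20. Olfr95 was -0.20 in vehicle pool 3 and 0.33 to 0.43 in the other vehicle pools. Olfr993 was 0.0081 in vehicle pool 3 and 1.17 to 1.40 in the others. Olfr544 was 0.89 in vehicle pool 2 and -0.14 to -0.10 in the others. The transcript 4930412O13Rik was 0.33 in octanol pool 3 and 0.74 to 0.80 in the others. Dpysl3 was -3.73 in octanol pool 2 and -2.995 to -2.94 in the others. Col1a1 was -1.85 in octanol pool 1 and -0.09 to 0.23 in the others.

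Group medians had 2 such values. The median ratio over odorant receptors was 0.79 in octanol pool 1 and 0.49 to 0.51 in the other octanol pools. The median over class I receptors was 1.54 in vehicle pool 2 and 0.33 to 0.45 in the other vehicle pools.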

How the results depend on the processing

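All 18 alternatives gave 0 genes past adjusted p 0.05, with a smallest adjusted p of 0.631 to 1.0. At an unadjusted p under 0.05, genes with higher and lower ratios numbered 295 and 653 with arrays centred on all genes, and 80 and 1331 centred on receptors, with 22 and 34 receptors. Without the pool in the model there were 326 higher genes, 33 of them receptors. The replicate block, with the number shared across exposures, gave 110 higher receptors, 60 of them among the 65. Every one of 8 pools correlated best with its own number, a hint from the data and not from the design. A trend with robust variances gave 39 higher receptors. Lower genes numbered 207 among expressed genes only and 218 with values raised to background.

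With 1 pool left out, higher genes numbered 451 to 584 and lower genes 352 to 445, higher receptors 44 to 106 and lower receptors 6 to 19. Leaving out vehicle pool 2 gave 106 and 19, and octanol pool 1 or vehicle pool 3 gave 14 lower receptors. The receptor median ran from 0.09 to 0.22 and the all-gene median from 0.01 to 0.04. Centring on all genes and on receptors turned the all-gene median to -0.036 and -0.17, S100a5 to -0.021 and -0.16, and Omp to -0.011 and -0.15. Centring on receptors, which sets their median near 0 by construction, also turned the receptor median to -0.028, Sema7a to -0.046, Cnga4 to -0.048, Rsph1 to -0.078 and Alas2 to -0.033. Raising values to background turned Grk3 to -0.0095. With 1 pool left out, Alas2 ran from -0.11 to 0.52, Icam1 from -0.19 to 0.11, Kdm5d from -0.49 to 0.0068 and S100a5 from -0.087 to 0.14. The causes were not tested. The other 1243 values of named genes kept their direction. 4 pools an exposure leave wide intervals, and signals near background have no lower scale.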
